A study of Mus musculus with 57 samples.

Results

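The 9 genes described here mark the conducting airway epithelium or control its identity, and they were taken by name from the 56860 genes of the count and TPM tables. Scgb3a2, Scgb1a1 and Cyp2f2 are made by secretory (club) cells of the airways, Agr2 encodes a protein disulphide isomerase of secretory cells and Muc1 a cell-surface mucin. Foxj1 encodes the forkhead factor that drives motile ciliogenesis. Calca encodes calcitonin and the calcitonin gene-related peptide and marks pulmonary neuroendocrine cells. Foxa1 and Foxa2 encode forkhead factors that act in endodermal epithelium from early stages. All 9 were found in the tables, and the values are those of trachea at E15.5 (embryonic day) and of lung at E12.5 and E15.5.

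The trachea and the lung both bud from the foregut endoderm, and their epithelium becomes regional as they grow. The tip cells of the branching lung tree give rise to alveolar cells, whereas the stalks and the trachea form the conducting airways. In the airways, basal, secretory, ciliated and neuroendocrine cells appear in the course of gestation, and Notch signalling separates secretory from ciliated and neuroendocrine fates. Hoxa5 itself is known as a gene of the mesenchyme of these organs, so that epithelial genes in Hoxa5 mutants bear on how the mesenchyme and the epithelium depend on each other.

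The 24 libraries were made from polyA-selected RNA of embryos kept in the 129/Sv background, with 4 wt and 4 Hoxa5-/- libraries for each of trachea E15.5, lung E12.5 and lung E15.5. The mutants carry on both chromosomes a null Hoxa5 whose homeobox, in the second exon, is interrupted by a neomycin resistance cassette, in every cell and from the start of development, and no agent was given. The study gives its wt values of each tissue as those of separate embryos, as many as there are wt libraries, and describes the samples of a group as biological replicates. Both genotypes of diaphragm (E15.5), somites (E10.5, E12.5) and brown fat from between the scapulae (iBAT, E18.5) served as background. Somites and iBAT were sequenced at another centre, so that tissue and centre cannot be told apart there. In whole tissue, fewer cells of a type and less RNA per cell cannot be told apart.

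Total counts of these libraries lay between 20552280 and 72991481. Hoxa5 was lower in every Hoxa5-/- library than in every wt library of each tissue, at -1.71 ± 0.18 SE (log2, Hoxa5-/- over wt, with its standard error) for trachea, -1.94 ± 0.09 SE for lung E12.5 and -1.85 ± 0.07 SE for lung E15.5 (edgeR, adjusted p = 0.0475, 7.15e-06 and 1.16e-05). In trachea the Hoxa5 call was lost when any 1 of the 8 libraries was left out (log2 fold change -1.85 to -1.57, adjusted p = 0.0596 to 0.315), whereas in lung it was kept in every fit. A few libraries stand apart. In Hoxa5-/- lung E15.5 replicate 4, the ribosomal rows Rn18s-rs5 and Mir6236 hold 30.7% of the TPM and 12.48% of the counts, against 0.717% to 3.74% of the TPM and 0.205% to 0.927% of the counts in the other 23 libraries, so that the TPM of nearly every other gene is lower there. In wt trachea replicate 3, a list of 10 thyroid genes sums to 469 TPM against 10.7 to 13.6 in the other 7 trachea libraries, Tg is at 350.3 TPM and the alveolar gene Sftpc at 288. In Hoxa5-/- trachea replicate 3, 8 skeletal muscle genes sum to 4568 TPM against 93.6 to 1221 in the others. In Hoxa5-/- lung E15.5 replicate 3, 8 hepatocyte genes sum to 494 TPM, against at most 45.9 in the other 7 lung E15.5 libraries.

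In GRCm39 the genes lie apart from each other, although Agr2 (chr12:36042906-36054086) and Foxa1 (chr12:57587414-57593702) share chromosome 12 and Cyp2f2 (chr7:26819334-26833085) and Calca (chr7:114230713-114235592) share chromosome 7. All are protein-coding, and counts are reads over their annotated exons, 3' and 5' untranslated exons included, which sum to between 476 bases for Scgb1a1 and 3327 bases for Foxa1. The counting setting for strand is not given in the sources used here, so that reads of an antisense transcript over these exons could be included.

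Promoter sequence of 6 of the 9 genes was in the RefSeq promoter table used here (build GRCm38.p6), and the 250 bases before each annotated start were searched on both strands. The forkhead core was searched as TGTTTAC and its variants, of which one is TATTTAC and the other one is TGTTTGC. The NK homeobox core, a sequence recognised by factors such as Nkx2-1, was searched as CAAGTG. The forkhead core was present in 9.73% and the NK core in 11.6% of the 32851 windows of the table. Among the members, Cyp2f2 held 1 NK core and Foxa1 1 forkhead core, and Agr2, Calca, Muc1 and the 3 windows of Foxa2 held neither in these letters. The first of these 2 stretches is shown because Cyp2f2 had among the largest differences between tissues of all 9 genes. The other is shown because Foxa1 is itself a forkhead gene, with the core at -141 to -135 bases from its start. The Foxa1 window overlaps a longer annotated transcript, so that only the bases around the core are given. The capitals mark the cores, and each stretch is given 5′ to 3′ on the strand of the gene, Cyp2f2 from -250 to -51 bases from its start (chr7:27119705-27119904, plus strand) and Foxa1 from -151 to -125 (chr12:57546236-57546262, minus strand).
Cyp2f2: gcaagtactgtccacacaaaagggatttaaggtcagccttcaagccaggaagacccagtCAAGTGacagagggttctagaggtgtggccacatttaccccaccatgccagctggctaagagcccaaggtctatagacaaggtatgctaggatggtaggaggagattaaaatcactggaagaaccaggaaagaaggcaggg
Foxa1: atactgctttGTAAACAaagtgagggc

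A match is a description of these letters, and no binding was measured here. Scgb3a2, Scgb1a1 and Foxj1 were not in the table.

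The first comparison asks whether loss of Hoxa5 changed the level of airway genes in each tissue. None of the 9 genes was called between genotypes in trachea E15.5, lung E12.5 or lung E15.5, where a call needs a change of at least 1.5-fold and a Benjamini-Hochberg adjusted p below 0.05 in the quasi-likelihood test of edgeR. In trachea all 9 were tested and the calls over all genes were 0.0156% of those tested. In lung E12.5 the 5 that reached a mean of 1 TPM in either genotype were tested against 0.0798% called over all genes, and in lung E15.5 the 8 that reached it, all but Calca, against 0.124%. None had an unadjusted p under 0.05 in any of the 3 tissues, and DESeq2 called none either. It gave no adjusted p for Scgb1a1 in trachea and Agr2 in lung E15.5, which it thus could not call. By contrast, nearly all of them differed with stage or tissue, as described gene by gene, and the plot of TPM by library shows all values. The 4 libraries of each genotype and context are the n of every comparison.

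**Figure D1:**
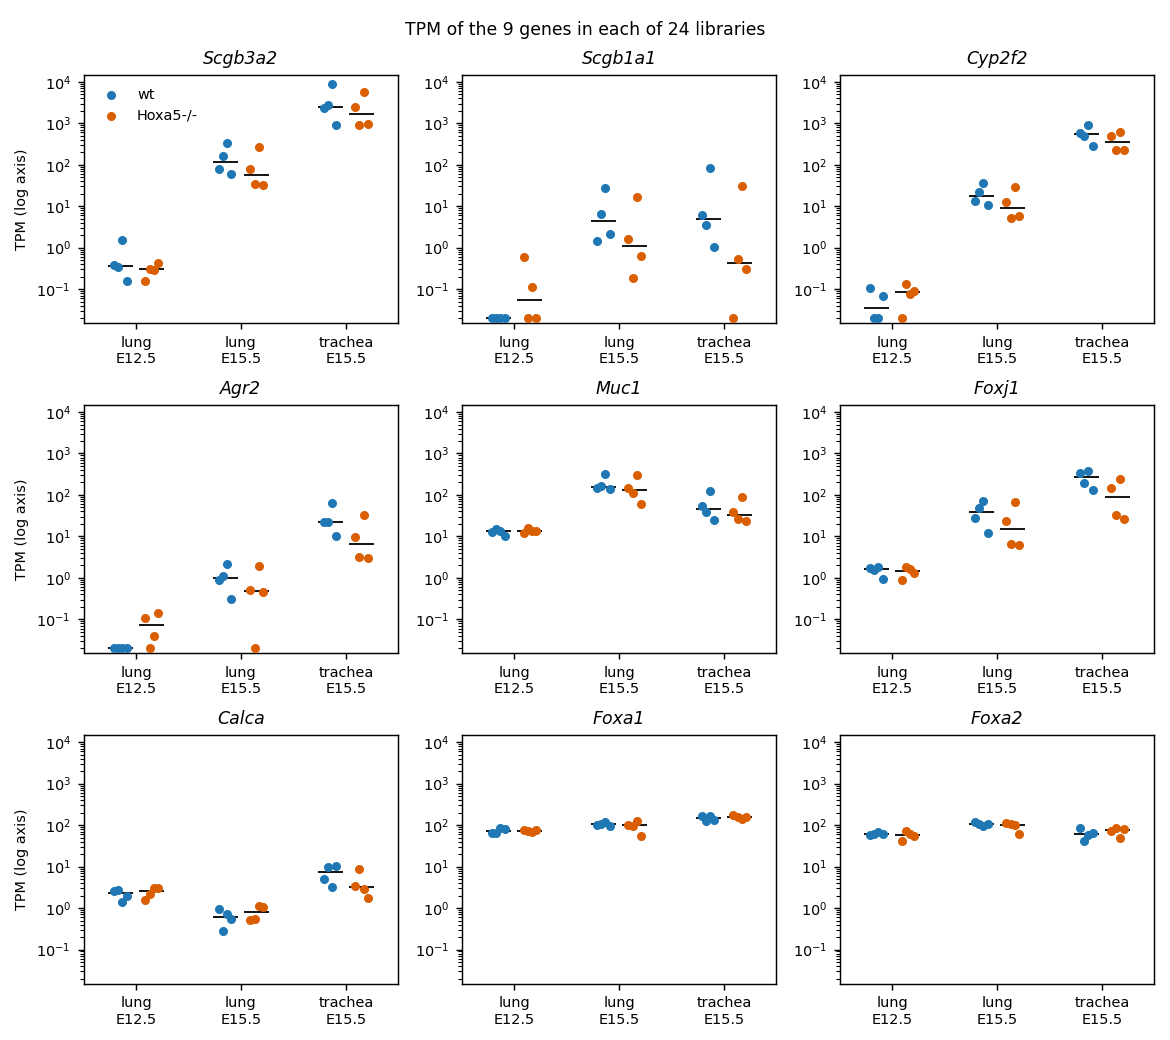
TPM (log axis) of the 9 genes in the 4 wt (blue) and 4 Hoxa5-/- (orange) libraries of lung E12.5, lung E15.5 and trachea E15.5, with a bar at the median of each group, and a value of 0 is drawn at 0.02. Scgb3a2, Cyp2f2, Foxj1 and Agr2 step up from lung E12.5 to lung E15.5 to trachea, Muc1 is highest in lung E15.5, Calca is lowest there, and within each tissue the genotypes overlap.

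From E12.5 to E15.5 the lung goes from early branching to the formation of the bronchioles, and the comparison of the stages shows which airway genes were already on at E12.5. In wt lung, 7 of the 9 genes were higher at E15.5 and 1, Calca, was lower, where 15.4% of the genes tested were called higher and 9.15% lower. In Hoxa5-/- lung, 6 of 8 tested were higher and Calca was lower, against 12.7% and 7.24% of all genes. Foxa1 was the exception in both genotypes, with a small difference that missed the 1.5-fold limit, and Agr2 was not tested in Hoxa5-/- lung because its means were under 1 TPM. A panel of 20 genes of epithelium in general, such as Epcam and Cdh1, rose too, with 18 of 20 called higher in each genotype. Its median log2 fold change was 1.06 in wt and 1.02 in Hoxa5-/- lung, above those of Foxa1 (0.48 and 0.40) and Foxa2 (0.73 and 0.77). Whether a member rose relative to the panel was not tested.

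At E15.5 most of the 9 genes differed between trachea and lung. In wt embryos 5 of the 9 genes, Scgb3a2, Cyp2f2, Foxj1, Calca and Agr2, were higher in trachea and 2, Muc1 and Foxa2, were lower, where 20.1% of all genes tested were called higher and 10.1% lower. In Hoxa5-/- embryos Scgb3a2, Cyp2f2, Calca, Agr2 and Foxa1 were higher in trachea and Muc1 was lower, against 17% and 10% of all genes. The stage and tissue comparisons of a genotype share the same 4 lung E15.5 libraries, which also serve in the comparison of genotypes. Same-numbered wt trachea and lung libraries deviated together, and the tissue values given for the members do not use this pairing. With the replicate number as a block, the wt SE was smaller for each of the 9 genes and the same ones passed. It was 0.20 for Scgb3a2, 0.17 for Agr2, 0.19 for Muc1 and 0.47 for Calca. Of the genes of the distal lung epithelium 10 of 12 tested, Sftpc and Sftpb among them, were lower in wt trachea than in wt lung, with Sftpc at a log2 fold change of -5.91 ± 1.41 SE.

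Scgb3a2, a secretoglobin and one of the first markers of secretory cells, was the most abundant of the 9 genes in trachea. It was near 0 in lung E12.5, at 0.375, 0.342, 1.496 and 0.157 TPM in the 4 wt and 0.158, 0.312, 0.297 and 0.423 TPM in the 4 Hoxa5-/- libraries, which rests on 17 and 10 reads in all. In lung E15.5 it was at 77.5, 161, 332 and 61.2 TPM in wt and 77.5, 34.95, 275 and 33.4 in Hoxa5-/- libraries. Every E15.5 library was above every E12.5 library, with a ratio of pooled CPM (normalised counts) of 261 in wt (95% exact interval 163 to 449) and 434 in Hoxa5-/- lung (236 to 905), intervals that cover counting error only. Single libraries carried much of these ratios. In wt it was 489 without lung E12.5 replicate 3, which held 10 of the 17 reads, and in Hoxa5-/- lung 172 without lung E15.5 replicate 3. The edgeR test put the stage difference at an adjusted p of 2.54e-05 in wt and 9.36e-05 in Hoxa5-/- lung. In trachea Scgb3a2 was at 2336, 2744, 8999 and 911 TPM in wt and 2436, 923, 5581 and 988 TPM in Hoxa5-/- libraries. The lowest trachea library was above the highest lung library of its genotype, and trachea was higher by a factor of 23.2 in wt (log2 fold change 4.54 ± 0.82 SE, adjusted p = 0.00167) and 22.04 in Hoxa5-/- embryos (log2 fold change 4.46 ± 0.86 SE, adjusted p = 0.00258).

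Between genotypes Scgb3a2 values overlapped in both E15.5 tissues. The log2 fold change of Hoxa5-/- over wt was -0.61 ± 0.78 SE in trachea (adjusted p = 0.862) and -0.54 ± 0.71 SE in lung E15.5 (adjusted p = 0.95). The highest value of each of the 4 groups was that of replicate 3. Without wt replicate 3 the sign turned in both tissues, to 0.32 in trachea and 0.12 in lung, while with all replicates numbered 3 left out it was -0.47 and -0.91.

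Cyp2f2, a cytochrome P450 of club cells, followed the same steps. In lung E12.5 it gave 3 reads over the 4 wt and 6 over the 4 Hoxa5-/- libraries. At E15.5 it was at 13.4, 21.5, 36.9 and 10.48 TPM in wt and 12.7, 5.198, 29.1 and 5.84 TPM in Hoxa5-/- lung, so that no E12.5 library reached an E15.5 library. The ratio of pooled CPM was 450.4 in wt (95% exact interval 154 to 2186) and 199.97 in Hoxa5-/- lung (91.6 to 546), with adjusted p = 6.95e-06 and 5.59e-05 in edgeR. Without wt lung E12.5 replicate 1 the wt ratio was 989 and rested on 1 read at E12.5, and without Hoxa5-/- lung E15.5 replicate 3 the Hoxa5-/- ratio was 107. Trachea held 593, 507, 890.2 and 284 TPM in wt and 492, 221, 628 and 226 TPM in Hoxa5-/- libraries. This was 27.04 times the lung level in wt (log2 fold change 4.76 ± 0.49 SE, adjusted p = 5.34e-05) and 26.8 times in Hoxa5-/- embryos (log2 fold change 4.74 ± 0.60 SE, adjusted p = 0.00025), again without overlap. The genotypes overlapped, at -0.55 ± 0.43 SE in trachea and -0.58 ± 0.54 SE in lung E15.5 on the log2 scale (adjusted p = 0.797 and 0.923), and the sign stayed negative in both tissues in every alternative fit run, from -0.86 to -0.23 in trachea and from -1.25 to -0.13 in lung.

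Scgb1a1, which encodes the club cell secretory protein, varied most between libraries. Wt lung E12.5 gave no read in any of the 4 libraries and Hoxa5-/- lung E12.5 gave 3 reads in all. In lung E15.5 it was at 1.41, 6.51, 28.1 and 2.17 TPM in wt and 1.59, 0.191, 16.2 and 0.614 TPM in Hoxa5-/- libraries. In wt this was 46.04-fold higher than at E12.5, set against 3 counts over the group (edgeR adjusted p = 0.0151). The exact 95% lower limit of the ratio was 37.0. The value against 3 counts fell to 17.9 without E15.5 replicate 3, which held 112 of the 161 reads. In Hoxa5-/- lung the ratio of pooled CPM was 37.5 (95% exact interval 12.52 to 184, edgeR adjusted p = 0.0305), and the stages overlapped. Replicate 3 of Hoxa5-/- lung E15.5 held 108 of the 118 reads, and without it the ratio was 4.904 and the gene was under the level tested. Without E12.5 replicate 1 the ratio was 93.3, on 1 read at E12.5. The call was also lost without Hoxa5-/- lung E12.5 replicate 2, 3 or 4 (adjusted p = 0.074, 0.093 and 0.0702).

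In trachea Scgb1a1 was at 6.11, 3.58, 81.998 and 1.06 TPM in wt and 0, 0.535, 30.97 and 0.301 TPM in Hoxa5-/- libraries, or 19, 14, 411 and 3 and 0, 2, 122 and 1 reads. A single library, replicate 3, thus held most of the reads of either genotype. Unlike Scgb3a2, Cyp2f2 and Agr2, Scgb1a1 did not pass the test between trachea and lung, with a log2 fold change of 1.30 ± 1.27 SE in wt (adjusted p = 0.427) and 0.66 ± 1.53 SE in Hoxa5-/- embryos (adjusted p = 0.744), which turned to -1.39 and -4.01 without trachea replicate 3 of that genotype. Between genotypes it was at -1.55 ± 1.64 SE in trachea (adjusted p = 0.833) and -0.89 ± 1.16 SE in lung E15.5 (adjusted p = 0.95), and without wt replicate 3 the values were 1.18 and 0.59.

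Agr2 was high in trachea and low in lung. Wt lung E12.5 gave no read in the 4 libraries, Hoxa5-/- lung E12.5 gave 3, and lung E15.5 held 0.913, 1.09, 2.13 and 0.301 TPM in wt and 0.502, 0, 1.88 and 0.453 TPM in Hoxa5-/- libraries. In wt lung the rise was at least 15.7-fold against 3 counts over the group (edgeR adjusted p = 0.00352), and without wt lung E15.5 replicate 3 its mean was under the level tested. In trachea it was at 22.9, 22.1, 64.1 and 10.4 TPM in wt and 9.55, 3.25, 32.7 and 2.997 TPM in Hoxa5-/- libraries, 26.3 times the lung level in wt (log2 fold change 4.71 ± 0.68 SE, adjusted p = 0.000415) and 14.7 times in Hoxa5-/- embryos (log2 fold change 3.88 ± 1.07 SE, adjusted p = 0.0153). The Hoxa5-/- trachea libraries 1, 2 and 4 lay below the lowest wt library and replicate 3 above the others of its genotype and above 3 of the 4 wt libraries. The log2 fold change between genotypes was -1.31 ± 0.84 SE in trachea (adjusted p = 0.784) and -0.48 ± 0.83 SE in lung E15.5 (adjusted p = 0.962). It was below 0 in trachea in every alternative fit run, from -2.53 to -0.60, with the lowest adjusted p at 0.135.

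Muc1, a mucin of the apical surface of many epithelia, had another order of tissues. It was already present in lung E12.5, at 12.9, 15.4, 13.6 and 10.1 TPM in wt and 11.8, 15.6, 13.3 and 13.9 TPM in Hoxa5-/- libraries. It reached 148, 166, 316 and 142 TPM in wt and 148, 112, 295 and 59.9 TPM in Hoxa5-/- lung E15.5, 14.3 times the E12.5 level in wt (log2 fold change 3.84 ± 0.28 SE, adjusted p = 3.84e-06) and 11.3 times in Hoxa5-/- lung (log2 fold change 3.50 ± 0.35 SE, adjusted p = 5.01e-05), without overlap of the stages. In trachea it was lower than in lung, at 52.7, 38.1, 123 and 24.9 TPM in wt and 38.8, 26.3, 88.1 and 23.8 TPM in Hoxa5-/- libraries (log2 fold change -1.72 ± 0.48 SE, adjusted p = 0.0153 for trachea over lung in wt, and log2 fold change -1.89 ± 0.50 SE, adjusted p = 0.0128 in Hoxa5-/- embryos). In wt the tissues did not overlap, and in Hoxa5-/- embryos trachea replicate 3 was above lung replicate 4, the library whose TPM are lowered by its high ribosomal share. The genotypes overlapped in all 3 contexts, at -0.45 ± 0.57 SE in trachea, 0.06 ± 0.14 SE in lung E12.5 and -0.29 ± 0.39 SE in lung E15.5 on the log2 scale (adjusted p = 0.862, 0.931 and 0.954), and without wt replicate 3 they were 0.21 in trachea and 0.07 in lung E15.5.

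Foxj1, the master regulator of motile cilia, was at a low level in lung E12.5, with 1.72, 1.53, 1.81 and 0.949 TPM in wt and 0.903, 1.83, 1.61 and 1.35 TPM in Hoxa5-/- libraries. At E15.5 lung held 28.6, 47.2, 70.8 and 12.3 TPM in wt and 23.7, 6.54, 66.8 and 6.35 TPM in Hoxa5-/- libraries, 25.5 times the E12.5 level in wt (log2 fold change 4.67 ± 0.53 SE, adjusted p = 5.48e-05) and 17.8 times in Hoxa5-/- lung (log2 fold change 4.16 ± 0.72 SE, adjusted p = 0.00141). Trachea held 340.1, 192, 375 and 129 TPM in wt and 143, 33.7, 245 and 26.4 TPM in Hoxa5-/- libraries. In wt every trachea library was above every lung library (6.36-fold, log2 fold change 2.67 ± 0.53 SE, adjusted p = 0.00264), whereas in Hoxa5-/- embryos replicates 2 and 4 of trachea were below lung replicate 3 and the difference missed the threshold (4.07-fold, log2 fold change 2.02 ± 0.89 SE, adjusted p = 0.089), which it passed without that lung library (adjusted p = 0.0217).

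The wt and Hoxa5-/- trachea values of Foxj1 overlap, although 2 Hoxa5-/- libraries, replicates 2 and 4, lie below the lowest wt library. The log2 fold change was -1.21 ± 0.70 SE (adjusted p = 0.777), from -1.94 to -0.88 over the alternative fits, and the lowest adjusted p of any fit was 0.147. In lung it was -0.07 ± 0.26 SE at E12.5 and -0.59 ± 0.73 SE at E15.5 (adjusted p = 0.961 and 0.945). The difference of the tissue step between genotypes was itself tested as an interaction, and Foxj1 did not pass it (-0.63 ± 1.08 SE on the log2 scale, adjusted p = 1).

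Calca ran against the other genes with time. Wt lung E12.5 held 2.61, 2.74, 1.41 and 1.97 TPM and wt lung E15.5 0.9495, 0.279, 0.709 and 0.538 TPM, and so fell by 1.85 ± 0.36 SE on the log2 scale (adjusted p = 0.0019). Hoxa5-/- lung went from 1.57, 2.204, 2.98 and 2.98 TPM to 0.513, 0.539, 1.105 and 1.04 TPM (log2 fold change -1.52 ± 0.38 SE, adjusted p = 0.0101). The stages did not overlap in either genotype, and the E15.5 values rest on 5 to 26 reads a library. In trachea Calca was at 5.09, 9.75, 3.27 and 10.2 TPM in wt and 3.38, 8.85, 2.94 and 1.702 TPM in Hoxa5-/- libraries, 10.9 times the lung level in wt (log2 fold change 3.45 ± 0.48 SE, adjusted p = 0.000336) and 4.59 times in Hoxa5-/- embryos (log2 fold change 2.20 ± 0.56 SE, adjusted p = 0.0106). Replicate 3, the highest library for most of the secretory genes, was the lowest of wt trachea for Calca. The genotypes overlapped in trachea (-0.75 ± 0.54 SE, adjusted p = 0.793) and lung E12.5 (0.15 ± 0.27 SE, adjusted p = 0.911), and lung E15.5 was under the level tested.

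Calca is also made by sensory and motor neurons, and genes of such neurons moved with it between stages and between tissues. A list of 13 such genes, Prph and the acetylcholine carrier gene Slc18a3 among them, summed to 19.1 to 88.9 TPM over the wt lung E12.5 libraries, 11.8 to 14.3 in wt lung E15.5 and 245 to 512 in wt trachea, and in Hoxa5-/- libraries to 36.6 to 86.4, 12.9 to 35.95 and 345 to 626 TPM. Of these, 9 of 10 tested were higher in wt trachea than in wt lung and 4 of 7 lower in the later than in the earlier wt lung, where 20.1% and 9.15% of all genes were called in these directions. Between genotypes in trachea, Calca was at -0.75, while the median log2 fold change of these genes was 0.12, with 7 of 10 above 0. Their part in the Calca values was not tested.

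Foxa1 and Foxa2, factors of the foregut endoderm, varied less between the libraries of an E15.5 group than most of the other members. The highest library was 1.26 to 2.33 times the lowest for Foxa1 and 1.21 to 2.08 times for Foxa2. The 2.33 was that of Hoxa5-/- lung E15.5, where the lowest library was replicate 4, the one with the high ribosomal share. Foxa1 was at 63.5, 66.2, 84.7 and 81.9 TPM in wt lung E12.5, 103, 108, 118 and 93.5 TPM in wt lung E15.5 and 164, 129, 164 and 131 TPM in wt trachea. The stage difference in wt lung was small, at 0.48 ± 0.10 SE on the log2 scale (adjusted p = 0.00237), as was that of trachea over lung, at 0.44 ± 0.11 SE (adjusted p = 0.00738), both under the 1.5-fold limit. In Hoxa5-/- libraries it was at 75.1, 72.3, 69.99 and 75.3, at 99.9, 97.2, 128 and 55.03 and at 173, 158, 138 and 159 TPM in the same order, and trachea over lung was 0.59 ± 0.13 SE (adjusted p = 0.00482), at the limit of 1.5-fold, and under it without Hoxa5-/- trachea replicate 1 or 4 or lung replicate 4.

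Foxa2 was at 57.3, 62.6, 66.7 and 62.8 TPM in wt lung E12.5, 117, 104, 96.99 and 106 TPM in wt lung E15.5 and 87.2, 41.998, 56.3 and 64.5 TPM in wt trachea. It was higher in the later lung than in the earlier one (log2 fold change 0.73 ± 0.07 SE, adjusted p = 1.80e-05) and lower in trachea than in lung (log2 fold change -0.80 ± 0.19 SE, adjusted p = 0.00631), each without overlap. In Hoxa5-/- libraries it was at 42.2, 70.3, 61.3 and 56.2, at 112, 105, 99.4 and 62.2 and at 73.2, 87.03, 48.2 and 81.9 TPM, with a stage difference of 0.77 ± 0.12 SE (adjusted p = 0.000627) and a tissue difference of -0.54 ± 0.16 SE (adjusted p = 0.0224) that missed the 1.5-fold limit. In wt embryos the median of Foxa2 was thus highest in lung E15.5 and that of Foxa1 in trachea, the latter by less than the fold limit. Between genotypes both were close, from -0.12 for Foxa2 in lung E12.5 to 0.21 for Foxa2 in trachea, with standard errors of 0.0807 to 0.234 and adjusted p from 0.804 to 0.999. Neither passed the test of a tissue step that differs between genotypes (Foxa1 0.17 ± 0.18 and Foxa2 0.29 ± 0.26 SE, adjusted p = 1 and 1).

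**Figure D2:**
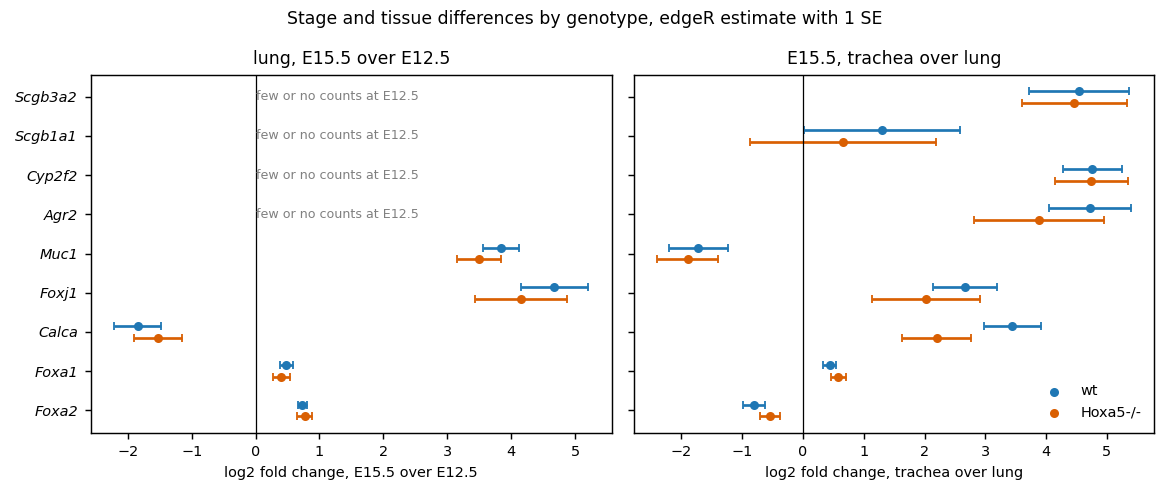
Log2 fold change with 1 SE (edgeR, n = 4 libraries a group) of lung E15.5 over lung E12.5 (left) and of trachea over lung at E15.5 (right), in wt (blue) and Hoxa5-/- (orange) embryos. Estimates of both genotypes lie side by side for each gene, with Calca below 0 on the left and Muc1 and Foxa2 below 0 on the right, and genes with few or no counts at E12.5 are not drawn on the left.

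**Figure D3:**
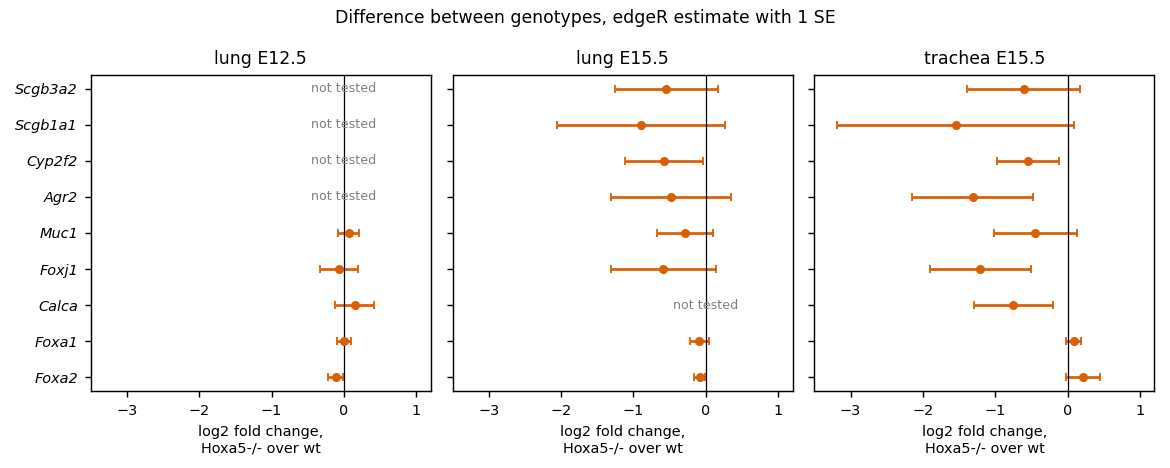
Log2 fold change with 1 SE (edgeR, n = 4 libraries a group) of Hoxa5-/- over wt for the 9 genes in lung E12.5, lung E15.5 and trachea E15.5. The estimates of lung E12.5 sit near 0, those of the secretory genes and Foxj1 lie below 0 in both E15.5 tissues with wide errors, and none passed the test.

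The wide errors at E15.5 come with a spread between libraries that was shared by the genes. In wt trachea the highest of the 4 libraries was replicate 3 for 6 of the 9 genes, in Hoxa5-/- trachea for 6, in wt lung E15.5 for 7 and in Hoxa5-/- lung E15.5 for 8. Over all genes at a mean of 1 TPM or more, replicate 3 was the highest for 28.6%, 29.7%, 36.95% and 36.7% in these groups. Scgb3a2, Scgb1a1, Cyp2f2, Agr2, Muc1 and Foxj1 were highest in replicate 3 of all 4 groups. The lowest library was replicate 4 for 6, 4, 6 and 5 of the 9 genes, and over all genes for 26.5%, 22.7%, 26.4% and 85.4%, the last being the library with the high ribosomal share.

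Other gene lists moved with these libraries. The 30 other secretory genes summed to 5427 TPM in replicate 3 of wt trachea, against a median of 2051 over its group, and to 3522 against 1595 in Hoxa5-/- trachea. The other ciliated genes summed to 2984 against 1477 and to 1865 against 618 TPM, again in replicate 3. In lung the distal epithelial genes, led by Sftpc, were also highest in replicate 3, at 9844 TPM in wt against a median of 5784 and at 9879.7 against 3575 in Hoxa5-/- lung. The panel of 20 epithelial genes, such as Epcam and Cdh1, varied less, from 2574 to 5204 TPM in wt and 2913 to 3959 in Hoxa5-/- trachea. Some lists of genes of other tissues, such as those of oesophagus and mesothelium, were also highest in replicate 3 of these groups. Others were so only in some of the groups. The hepatocyte list was highest in replicate 1 of wt trachea and wt lung E15.5 and in replicate 4 of Hoxa5-/- trachea. The skeletal muscle list was highest in replicate 1 of wt trachea and replicate 4 of Hoxa5-/- lung E15.5. The oesophagus list of 10 genes summed to 227, 420.01, 1109 and 154 TPM over the 4 wt and 307, 105, 863 and 140.2 TPM over the 4 Hoxa5-/- trachea libraries, and to 14.7, 19.02, 43.4 and 13.4 and 14.01, 10.99, 28.2 and 6.71 TPM in lung. Of its keratins, Krt4 and Krt5 are also made in airway epithelium, and Krt13 was at most 1.73 TPM in any trachea or lung E15.5 library. The mesothelium list of 8 genes, 3 of them keratins shared by many epithelia, summed to 1881, 1759, 3184 and 1224 TPM in wt and 1774, 1223, 2355 and 1275 TPM in Hoxa5-/- trachea and was highest in replicate 3 of both lung groups too. The part of these tissues in the values of replicate 3 was not tested.

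**Figure D4:**
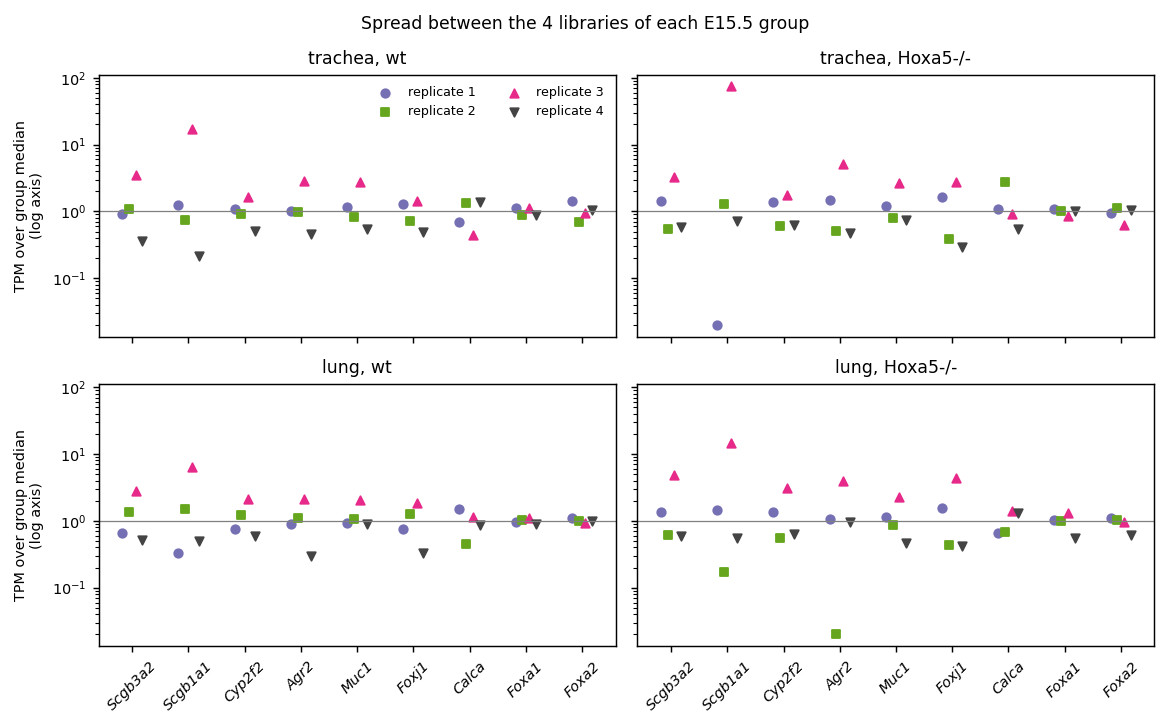
TPM of each gene in replicates 1 to 4 of the E15.5 groups, divided by the median of the group (log axis), with a value of 0 drawn at 0.02. Replicate 3 (pink triangles) is the highest of its group for Scgb3a2, Scgb1a1, Cyp2f2, Agr2, Muc1 and Foxj1 in both tissues and both genotypes, while Calca, Foxa1 and Foxa2 show no such order.

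To set the genes beside the epithelium as a whole, each was divided by the summed CPM of the epithelial panel. The panel itself did not pass a test between genotypes, with mean differences on the log2 scale of -0.03 in trachea, -0.08 in lung E12.5 and -0.13 in lung E15.5 (exact two-sided permutation p = 0.971, 0.257 and 0.457). Relative to the panel, Foxj1 in trachea went from -3.78 ± 0.39 in wt to -5.42 ± 1.38 in Hoxa5-/- libraries (log2, SD, n = 4 each), with the lowest exact permutation p of the 22 tests, 0.0571, or 0.707 after Benjamini-Hochberg adjustment over them. Agr2 in trachea followed at a difference of -1.66 (exact permutation p = 0.114). The smallest p that 4 against 4 libraries allow is 0.0286, so that after the adjustment no gene could pass unless 13 of the tests reached it together, and these tests cannot show that a gene did not differ.

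The wider lists of airway genes place the 9 members among their kind. Of the other ciliated genes in trachea, such as Mcidas, Ccno and Deup1, 38 of 39 had a lower estimate in Hoxa5-/- than in wt, with a median log2 fold change of -1.26 beside 0.0020 over all genes tested, and none was called. These genes share the libraries and move together, so that their number is not a number of independent observations. Without wt replicate 3 the median was -0.60, without Hoxa5-/- replicate 3 -2.60 and with both left out -1.95, with no call in any of these fits. Of the other secretory genes 21 of 24 were below 0 in trachea (median -0.56) and of the other neuroendocrine genes 15 of 26 (median -0.03), and none of either list was called.

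In lung E15.5 the medians were -0.32 for the ciliated (28 of 31 below 0), -0.17 for the secretory (13 of 18) and 0.09 for the neuroendocrine genes (6 of 17), beside -0.0062 over all genes. One secretory gene was called, Cyp4b1, which encodes another cytochrome P450. It was at 10.97, 11.2, 16.5 and 9.64 TPM in wt and 1.34, 1.69, 2.63 and 1.295 TPM in Hoxa5-/- lung, without overlap and 6.46-fold lower (-2.69 ± 0.25 SE on the log2 scale, adjusted p = 0.00474). It was called in all 14 alternative fits. In trachea Cyp4b1 was at 3.87, 6.15, 15.95 and 2.899 TPM in wt and 3.15, 1.69, 8.25 and 1.46 TPM in Hoxa5-/- libraries, which overlap (-1.004 ± 0.70 SE, adjusted p = 0.793), and the difference between the tissues did not pass the interaction test (1.68 ± 0.78 SE, adjusted p = 0.977). In lung E12.5 none of the 3 lists had a call, with medians of -0.09, 0.06 and 0.08 for the secretory, ciliated and neuroendocrine genes.

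**Figure D5:**
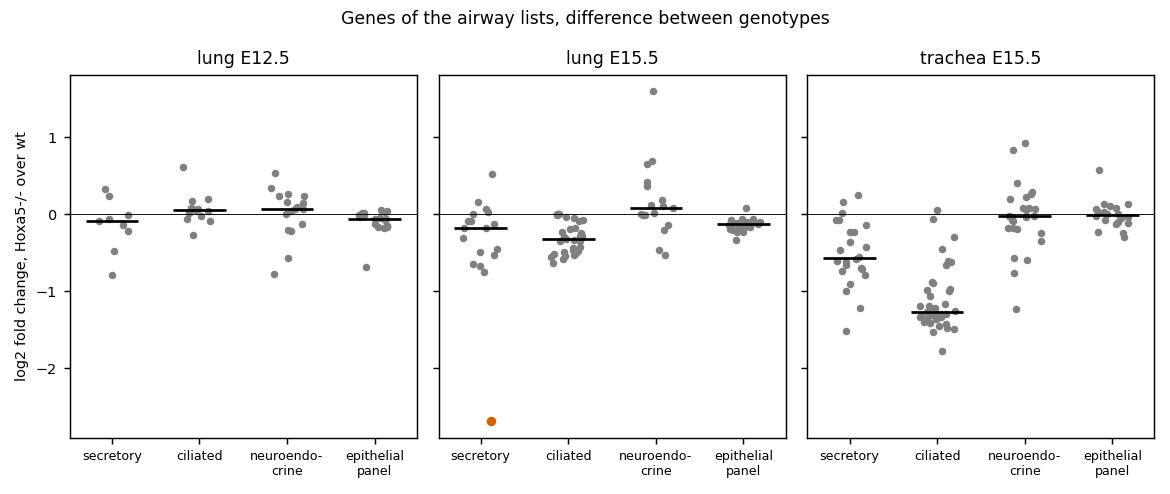
Log2 fold change of Hoxa5-/- over wt (edgeR) for each tested gene of 4 lists in the 3 respiratory contexts, with a bar at the median, grey for genes not called and orange for the called gene. The ciliated genes in trachea lie around a median of -1.26 without any call, and the only called gene, in lung E15.5, is Cyp4b1.

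Across stages, 23 of 31 other ciliated and 14 of 19 other secretory genes tested were higher in wt lung at E15.5, beside 15.4% of all genes. The median log2 fold changes of the genes tested were 3.07 and 2.76, beside -0.01 over all genes. Among the secretory genes were the monooxygenase gene Fmo2 (8.09 ± 0.89 SE), Lypd2 (7.67 ± 0.72 SE) and the carbonyl reductase gene Cbr2 (6.80 ± 0.90 SE). Bpifb1 and Gsto1 were the 2 that fell, by 2.21 and 0.83 on the log2 scale. In Hoxa5-/- lung 22 of 30 ciliated and 14 of 19 secretory genes were higher, beside 12.7% of all genes. Without Hoxa5-/- lung E15.5 replicate 3, 11 ciliated genes were higher.

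Other neuroendocrine genes were called in both directions. In wt lung 5 of 19 tested rose and 5 fell (median -0.05), beside 15.4% and 9.15% of all genes. Those that rose include Ccn3 (3.69 ± 0.28 SE), the convertase gene Pcsk1 (4.35 ± 0.58 SE) and Grp, gastrin-releasing peptide (1.43 ± 0.29 SE), while Calcb, which encodes a second calcitonin gene-related peptide (-3.71 ± 0.30 SE), and the chemokine gene Cxcl13 (-3.49 ± 0.26 SE) fell as Calca did.

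Between the organs, 34 of 39 other ciliated, 13 of 24 secretory and 20 of 26 neuroendocrine genes tested were higher in wt trachea. Of all genes tested, 20.1% were called higher there than in wt lung. The median log2 fold changes of the 3 lists were 2.66, 1.53 and 1.73, beside 0.02 over all genes. Of the sensory and motor neuron genes, 9 of 10 tested were higher in wt trachea too, at a median of 5.22. The part of neurons in the neuroendocrine count was not tested. With the replicate number as a block, which pairs the libraries of this comparison, 16 secretory genes were higher and 2 lower, and without wt trachea replicate 3 it was 11 and 3. The largest differences were those of Reg3g, the airway mucin gene Muc5b, Gabrp and Scgb3a1, with Muc5b at 6.64 ± 0.60 SE, Reg3g at 7.35 ± 1.004 SE and the secretoglobin gene Scgb3a1 at 5.30 ± 1.45 SE. Basal cell genes of the patterning list, Krt5 (8.04 ± 0.90 SE) and Trp63 (5.31 ± 0.17 SE), and the proximal factor Sox2 (2.45 ± 0.13 SE) were higher in trachea, and Nkx2-1 was lower (-2.11 ± 0.17 SE). Krt5 and Trp63 are also genes of the oesophagus list, of which 7 of 7 tested were higher in wt trachea. Over the 4 wt trachea libraries Krt5 was at 19.4, 57.8, 92.8 and 11.6 TPM, and Trp63 at 13.2, 15.3, 13.3 and 15.8 TPM. The libraries ranked for Krt5 as for that list's sum, in which Krt5 itself is counted, and as for the airway gene Scgb3a2. What part of the Krt5 level came with oesophageal tissue was not tested. In Hoxa5-/- embryos 8 of 39 other ciliated genes passed at a median of 1.84, beside 17% of all genes. This count rested on single libraries: it was 24 without lung replicate 3, 3 without lung replicate 1 or 2, and 4 without lung replicate 4 or trachea replicate 1 or 3. The difference of that step between genotypes, tested as an interaction, was called for none of them.

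Across both steps, no member passed the test of a stage or tissue change that differs between genotypes. Of the 9 genes none was called in the interaction of genotype with stage, where 0.0267% of all genes were, or in that with tissue, where 0.00502% were, and none had an unadjusted p under 0.05. The lowest adjusted p of a member was 0.964 for stage, in Agr2, and 1 for tissue.

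Over the 24 libraries, the genes with the most similar pattern to each member were found by Pearson's r of log2(TPM + 1) among 20356 genes, as a description of points that share tissues and libraries. Foxj1 was followed most closely by Cdc20b (0.997), Trp73 (0.993) and Deup1 (0.992), of which Cdc20b and Deup1 act in multiciliated cells and Trp73 encodes a regulator of them. Scgb3a2 was followed by Mrgprf (0.993), Nectin4 (0.993) and S100a14 (0.993), Cyp2f2 by S100a6 (0.995), Ehf (0.993) and Ecm2 (0.992) and Agr2 by Armh1 (0.989), Sptlc3 (0.988) and Atp6v1b1 (0.984). Scgb1a1 was followed by Gm15889 (0.951), Dnah11 (0.946) and Thegl (0.933), of which Dnah11 encodes a dynein of cilia. Muc1 had Marveld3 (0.972), Cd44 (0.968) and Dtx3l (0.967), Foxa1 Ssx2ip (0.974), Chmp2b (0.969) and Tspan12 (0.963), Foxa2 Fam171a1 (0.903), Marveld2 (0.886) and Entpd3 (0.884) and Calca 4930412O13Rik (0.925), Rab3c (0.918) and Masp1 (0.914).

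Among the members, Scgb3a2, Cyp2f2 and Foxj1 were alike, with r of 0.986 for Scgb3a2 and Cyp2f2, 0.968 for Scgb3a2 and Foxj1 and 0.957 for Cyp2f2 and Foxj1. Foxa1 followed the same genes, at 0.91 with Cyp2f2, whereas Foxa2 did not, at 0.07. Calca and Muc1 were opposed, at -0.47. These values sum the steps between tissues and stages and the spread between libraries.

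Outside the respiratory tract most of the genes were low. Over the 7 wt contexts, Scgb3a2, Cyp2f2, Foxj1, Agr2, Calca and Foxa1 had their highest median TPM in trachea and Muc1 and Foxa2 in lung E15.5. Scgb1a1 had similar medians in trachea and lung E15.5, 4.84 and 4.34 TPM, whose ranges overlap. For Scgb3a2, Foxj1 and Foxa1, trachea and lung E15.5 did not overlap with each other or with the next context. Calca was the exception, since its wt trachea range overlapped that of somites E12.5, at 2.94 to 6.23 TPM, and lung E15.5 was the lowest of the 7. In wt iBAT, Scgb3a2, Scgb1a1 and Foxj1 had no read in any of 5 libraries.

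Diaphragm, the muscle beside the lung, was the 1 other tissue in which a member was called between genotypes under any fit. Cyp2f2 was at 28.6, 33.2, 0.434 and 0.343 TPM in wt and 0.1998, 0.0372, 0.103 and 0.0804 TPM in Hoxa5-/- diaphragm. Foxj1 was at 1.94, 3.06, 2.396 and 1.02 TPM in wt and 0.386, 0.345, 0.9501 and 0.558 TPM in Hoxa5-/- diaphragm. None of the 7 members tested was called by edgeR, where 0.594% of all genes were. Of these members 4 had an unadjusted p under 0.05, as did 2348 of all 18019 genes tested. DESeq2 called Cyp2f2 and Foxj1. Their adjusted p in edgeR was 0.12 and 0.0903, and without wt replicate 4 that of Foxj1 was 0.0492. The high Cyp2f2 values were those of wt replicates 1 and 2, in which the oesophageal keratin genes Krt4 and Krt13 were also high, at 92.8, 102, 2.71 and 2.65 and 73.1, 99.8, 0.06902 and 0.981 TPM over the 4 wt libraries, against at most 5.47 and 0.889 TPM in Hoxa5-/- libraries. In wt replicate 3, where Muc1, Foxa1 and Foxa2 were highest at 16.9, 16.2 and 15.2 TPM, Sftpc was at 322 and Nkx2-1 at 57.1 TPM, against at most 11.8 and 0.642 in the other 7 diaphragm libraries. Epcam, a gene of all epithelia, was at 7.802, 16.1, 57.2 and 1.58 TPM in wt and 2.21, 1.48, 1.61 and 1.22 TPM in Hoxa5-/- libraries. The list of 13 neuron genes summed to 45.4, 64.3, 28.95 and 43.3 TPM in wt and 13.9, 17.7, 14.9 and 15.4 TPM in Hoxa5-/- libraries, without overlap, with 4 of 8 tested called lower, as were 4 of 18 other neuroendocrine genes. In wt replicate 4, where Krt4, Krt13, Sftpc and Epcam were low, Foxj1 was at 1.02 TPM, above the 4 Hoxa5-/- libraries. The part of these other tissues in the differences was not tested.

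In somites and iBAT no member was called between genotypes by edgeR. Over all genes it called 2 higher and 2 lower of 18573 in somites E10.5. It called 1 lower of 18906 in somites E12.5 and 1 lower of 15212 in iBAT. An unadjusted p under 0.05 was found for 2 of 5, 2 of 6 and 1 of 2 members tested in these contexts. Over all genes it was found for 2360, 613 and 376. Foxj1 was among these members at both somite stages, in opposite directions. It was higher in Hoxa5-/- somites at E10.5 (log2 fold change 0.48 ± 0.19 SE, edgeR adjusted p = 0.391). At E12.5 it was lower (log2 fold change -0.68 ± 0.25 SE, edgeR adjusted p = 0.999). DESeq2 called no member in somites or iBAT but gave no adjusted p for Scgb1a1 in somites E12.5. In 1 library of wt somites E12.5, replicate 2, Scgb1a1 was at 34.9 TPM on 125 reads, with 61 reads of Sftpc, whereas the other 3 wt libraries had no read of Scgb1a1 and at most 1 of Sftpc.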

How the data were processed

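RNA-seq libraries of trachea, lung, diaphragm, somites and iBAT were analysed. Per the methods, reads went through Trim Galore 0.6.5 and were aligned by the authors to GRCm39 with STAR 2.7.9a and counted per gene with featureCounts 2.0.3 on a GENCODE annotation in which Hox genes had been curated by hand. The deposited counts are raw reads per gene, and the deposited TPM are those reads scaled for summed exon length and library by the authors, which could be recomputed within rounding. Trachea, lung and diaphragm were read single-end at one centre.

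Members and lists were chosen with earlier results of these data known, so that nothing here is an independent test of them. Counts were fitted with edgeR 4.0.16 (R 4.3.3, TMM, quasi-likelihood F test, two-sided) over all genes with a mean of at least 1 TPM in either group, each comparison in its own fit, with Benjamini-Hochberg adjustment over all genes tested. A call needed an adjusted p below 0.05 and a 1.5-fold change, and an SE is the log2 fold change divided by the square root of F. This was used in place of the DESeq2 of the study, which was run as an alternative (DESeq2 1.42.0), as were its size factors, a minimum of 10 counts, the replicate number as a block, a joint fit of every library in a table, no fold limit and leaving out each library. Leaving out all E15.5 libraries numbered 3 was chosen after seeing the data. Beyond the members and Hoxa5, genes were named by the rule of at most 4 called genes with the largest rise and 4 with the largest fall in a list and comparison, and 3 genes of most similar pattern per member, and other list genes named by their role were chosen after their values were seen. Intervals and floors cover counting error only, with a floor of 3 counts over a group. Same-numbered trachea and lung libraries deviated together in wt (r from 0.20 to 0.54 for the 4 pairs, each above 0.1), so that they count as paired there, as do those of iBAT (r from 0.13 to 0.40). The reported fits do not use either pairing, which enters only through the replicate block. The scripts were tested on simulated data, and no 2 libraries were identical.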

Additional observations from a re-analysis of the deposited data

Results flagged for a closer look

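In 6 of 72 sets of 4 libraries, formed by the 9 genes in trachea, lung and diaphragm, 1 library lay apart from the other 3. The limit was Dixon's critical value at 95% for the gap over the whole range. For normally distributed values, chance alone passes it in about 1 in 20 sets. Sets of TPM that rest on few reads or hold only 0 need not keep to that rate. All 6 sets past the limit had their high value in a replicate 3. Scgb1a1, the club cell secretoglobin gene, was at 81.998 TPM, with the next library at 6.11, in wt trachea, at 30.97 TPM, with the next library at 0.535, in Hoxa5-/- trachea and at 16.2 TPM, with the next library at 1.59, in Hoxa5-/- lung E15.5. Muc1 was at 316 TPM, with the next library at 166, in wt lung E15.5 and at 16.9 TPM, with the next library at 2.83, in wt diaphragm, the library in which lung genes such as Sftpc were also highest. Scgb3a2 in wt lung E12.5 was at 1.496 TPM, with the next library at 0.375, where the 4 libraries hold 17 reads in all. The sets share libraries and are not independent, and no difference between contexts passed an interaction test for a member.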

How the results depend on the processing

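No member was called between genotypes in trachea or lung, or in either interaction, under any alternative run. DESeq2 gave no adjusted p for Scgb1a1 in trachea and in the interaction with tissue. The same held for Agr2 in lung E15.5 and in the interaction with stage. In diaphragm, somites and iBAT together the count of 0 members called went to 2 with DESeq2, to 2 with the replicate block and to 1 with a joint fit of every library in a table, and was 0 to 1 when each library was left out, and every one of these calls was Cyp2f2 or Foxj1 in diaphragm. The number of members called when each library was left out was 7 to 8 for stage in wt, 6 to 7 for stage in Hoxa5-/-, 7 in each fit for tissue in wt and 5 to 7 for tissue in Hoxa5-/-. When each library was left out, log2 fold changes between genotypes ran in trachea from -1.38 to 0.32 for Scgb3a2, -6.17 to 1.18 for Scgb1a1 and -1.02 to 0.21 for Muc1, in lung E12.5 from -0.23 to 0.053 for Foxj1, -0.017 to 0.30 for Calca, -0.044 to 0.18 for Muc1 and -0.067 to 0.059 for Foxa1, and in lung E15.5 from -1.58 to 0.12 for Scgb3a2, -3.44 to 0.59 for Scgb1a1, -0.76 to 0.069 for Muc1 and -0.22 to 0.012 for Foxa1. For Foxa1 in lung E12.5, -0.0015 in the reported fit, it was 0.0016 with a minimum of 10 counts and 0.0017 with the replicate block. For Scgb1a1 in trachea over lung it ran from -1.39 to 2.77 in wt and -4.01 to 3.17 in Hoxa5-/-, and for the interaction of Foxj1 with tissue from -1.36 to 0.38. With the joint fit, Foxa2 no longer passed for stage (adjusted p = 0.206 in wt and 0.179 in Hoxa5-/-) or tissue in wt (0.137), nor did Scgb1a1 for stage (0.129) and Foxa1 for tissue (0.287) in Hoxa5-/-. The cause was not tested.

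The replicate block, where numbers did not pair the libraries by the rule used, took Foxj1 in Hoxa5-/- trachea over lung past the threshold (adjusted p = 0.000155), as did the joint fit (0.00727) and leaving out the libraries numbered 3 (0.0222), and the number of other ciliated genes higher there was 31 with the block, 20 with the joint fit and 17 of 30 tested without the libraries numbered 3, against 8 of 39. In these Hoxa5-/- pairs 3 of 4 libraries correlated best with their own number. The block changed no other call of a member in trachea or lung.

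Over all genes, the calls between genotypes in trachea went from 3 to 52 with DESeq2, 40 with the joint fit, 1 with the block, 1 without the libraries numbered 3 and 0 to 1 when each library was left out. In lung E12.5 they went from 14 to 81, 18 and 4 under the first 3 of these and 5 to 14 when each library was left out, and in lung E15.5 from 22 to 83, 38, 104, 54 and 5 to 37 in the order given for trachea. Without the fold limit, calls went from 4466 to 9107 for stage in wt, 3633 to 6559 in Hoxa5-/-, 5838 to 9584 for tissue in wt and 5205 to 9248 in Hoxa5-/-. Interaction calls went from 5 for stage to 16 with DESeq2, 3 with the joint fit and 9 without the libraries numbered 3, and from 1 for tissue to 46, 13 and 8, with 15 under the block. Depth limits Scgb1a1 and Agr2 in lung and Calca in lung E15.5, where single libraries hold as few as 1, 0 and 5 reads at E15.5.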
